A study of Homo sapiens with 8 samples.

Results

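The mitochondrial genome of human cells encodes 37 genes, 13 for proteins of the respiratory chain, 2 for the RNAs of the mitochondrial ribosome and 22 for tRNAs. All gene IDs whose symbol starts with MT- were taken, which gave these 37 of the 49733 IDs in the files. The RNA came from HepG2, a line grown from a human hepatocellular carcinoma, in 8 libraries of poly-A-selected RNA. Cells received 2 µM benzo[a]pyrene (BaP) in 0.5% DMSO for 12 h or for 24 h, or 0.5% DMSO alone (vehicle) for the same times, and each of the 4 groups had 2 libraries from independent experiments. BaP, found in smoke and tar, is a ligand of the aryl hydrocarbon receptor, and its metabolites bind DNA. HepG2 is a single tumour line, so the values describe these cells and not liver tissue. Levels are given as CPM, the estimated counts per 1000000 counts of the library after scaling.

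Mitochondrial DNA is a small circle that is read on both strands. A transcript of the heavy strand starts ahead of the rRNA genes and runs through nearly the whole circle, and the tRNAs lying between the other genes are cut out to release single mRNAs and rRNAs. The mitochondrial polymerase POLRMT starts transcription with the factors TFAM and TFB2M. The mRNAs then receive a poly-A tail from MTPAP, and the LRPPRC and SLIRP complex keeps them stable. The products are the core of complexes I, III, IV and V, which carry electrons to oxygen and make ATP. MT-CYB encodes cytochrome b, the only mitochondrially encoded subunit of complex III, which passes electrons from ubiquinol to cytochrome c.

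The ends of the coding transcripts are shown because poly-A selection captures RNA by the tail that follows them. In the GENCODE 29 transcripts of build GRCh38, matched by transcript ID, 6 of the 13 coding sequences stop short of a whole stop codon, which the tail completes (MT-ND1, MT-ND2, MT-CO3, MT-ND3, MT-ND4 and MT-CYB). The last bases are given 5′ to 3′ as DNA letters for 5 genes that the results below turn on, with the stop, whole or partial, in capitals.
MT-CYB: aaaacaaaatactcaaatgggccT
MT-ND4: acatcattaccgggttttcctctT
MT-ND1: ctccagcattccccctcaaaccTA
MT-ND5: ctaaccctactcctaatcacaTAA
MT-ND6: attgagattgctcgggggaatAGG
MT-CYB and MT-ND4 end in a single T, MT-ND1 ends in TA, and MT-ND5 has a whole stop codon. MT-ND6, read from the light strand, ends in AGG, and its mRNA is known to carry little or no poly-A tail. Log2 fold changes of BaP against vehicle for the 6 genes with a partial stop are set out here. At 12 h they were -0.94 (MT-CYB), -0.38 (MT-ND4), -0.31 (MT-CO3), -0.13 (MT-ND2), -0.10 (MT-ND3) and 0.11 (MT-ND1). In the same order, the values at 24 h were -0.73, -0.27, -0.34, 0.06, -0.12 and 0.42. Whether the kind of stop has a part in the response was not tested.

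Neighbouring genes also share bases, and reads from shared bases cannot be assigned to a single gene. MT-ATP8 and MT-ATP6 overlap by 46 bases, which is 22.2% of MT-ATP8 and 6.75% of MT-ATP6. MT-ND4L and MT-ND4 overlap by 7 bases, shown in capitals at the end of the first and the start of the second.
MT-ND4L end: ctactccaATGCTAA
MT-ND4 start: ATGCTAAaactaatc
The start codon of MT-ND4 and the stop codon of MT-ND4L lie within these shared bases. Each such pair is thought to stay on a single mRNA, so levels of its members are not independent of each other.

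Total estimated counts per library ranged from 2592272 in replicate 1 of BaP 24 h to 16533490 in replicate 2 of the same group. The induced gene CYP1A1, a target of the aryl hydrocarbon receptor, checked the exposure, with 306 to 1060 CPM in the 4 BaP libraries and at most 6.57 in the 4 vehicle libraries. All 10 hepatocyte markers examined were tested, with a summed level of 20066 to 32359 CPM. With BaP 8 of the 10 had negative log2 values at 12 h and 9 at 24 h, and APOB was called lower at both times (-0.81 and -0.75, adjusted p = 0.0097 and 0.025). Among markers of other cell types, the 2 endothelial genes that were matched summed to at most 3.04 CPM, and PTPRC, a leukocyte marker, had under 10 counts in all libraries together. The cholangiocyte markers summed to 299 to 555 CPM and the other leukocyte markers kept that list at 559 to 983 CPM. Each of these sums came mainly from 1 gene. Over all libraries KRT19 had 35143 counts and KRT7, the other cholangiocyte marker, 33. LYZ had 59516, against 3637 for CD68 and 247 for CD14. The fibroblast and stellate markers summed to 20.8 to 60.6 CPM. Of 3 leukocyte markers tested, 1 was called higher with BaP at 12 h and 2 at 24 h. Of 2 fibroblast markers 1 was called lower at 12 h. Over all 14746 genes tested, 3.41% and 3.11% were called higher at 12 h and 24 h, and 4.84% and 2.2% lower. Negative log2 values stood in 7069 and 7273 of them. The part of the markers in the results below was not tested.

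Mitochondrial genes took 17.1% to 18.7% of all counts, and in this total the BaP and vehicle libraries overlapped at each time. Other ways of taking the share, some without overlap, are given under the dependence on processing. At 12 h the share was 18.5% and 17.8% with BaP against 17.2% and 18.7% with vehicle. The shares at 24 h were 17.1% and 18.5% with BaP against 17.1% and 17.5% with vehicle. The mean difference was 0.22 percentage points at 12 h and 0.49 at 24 h, and an exact two-sided permutation test gave p = 1.0 at each time (n = 2 per group, for which 0.333 is the smallest possible p). In bulk RNA, fewer mitochondria per cell and less RNA per mitochondrion cannot be told apart.

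Within that total, the balance between rRNA and mRNA differed between the groups. The 2 rRNA genes took 7.29% and 7.26% of all counts with BaP at 12 h, and 5.19% and 6.21% with vehicle. At 24 h they took 6.41% and 6.33% with BaP, and 4.87% and 5.42% with vehicle. In this share of counts all 4 BaP libraries lay above all 4 vehicle libraries. The 13 coding genes took 11.2% and 10.5% with BaP at 12 h, below the 12.0% and 12.5% of vehicle. At 24 h the coding share was 10.7% and 12.2% with BaP and 12.2% and 12.1% with vehicle, and the groups overlapped. These shares are given as values, with no test.

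**Figure D1:**
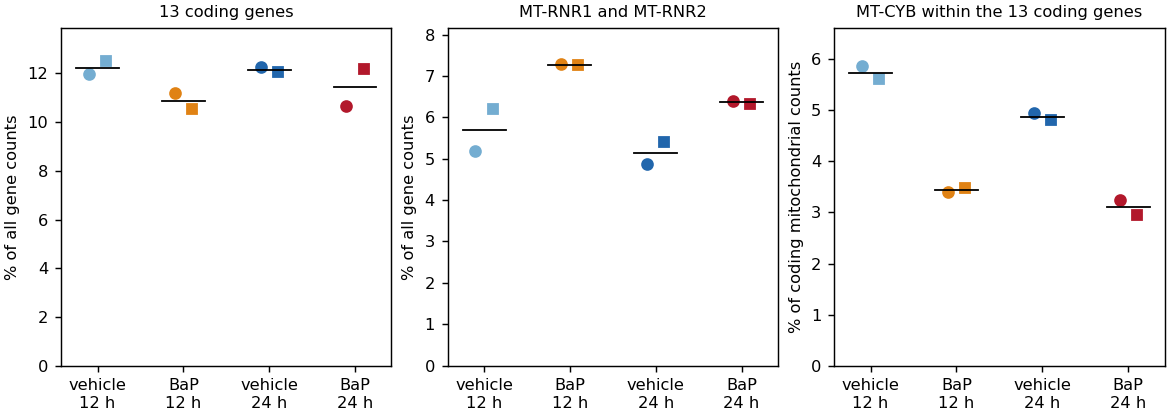
Share of all gene counts taken by the 13 coding genes (left) and by the 2 rRNA genes (middle), and share of the coding mitochondrial counts taken by MT-CYB (right), in %, for each group. Circles are replicate 1, squares replicate 2 and lines the group mean of 2 libraries; the MT-CYB share is 4.81% to 5.86% in the vehicle libraries and 2.96% to 3.48% in the BaP libraries.

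Of the 37 genes, 15 passed the filter on low counts and were tested: all 13 coding genes and both rRNA genes. None of the 22 tRNA genes passed. With edgeR's quasi-likelihood test, adjusted over all 14746 genes tested, MT-CYB was called lower at both times and no other mitochondrial gene was called. That is 1 of 15 lower at 12 h, where 4.84% of all genes were called lower, and 1 of 15 lower at 24 h, where 2.2% of all genes were. The count called higher was 0 at each time, beside 3.41% and 3.11% of all genes. At an unadjusted p under 0.05, 3 members stood at 12 h (MT-CYB, MT-ND5 and MT-ND6, all lower) and 2 at 24 h (MT-CYB lower and MT-ND1 higher). Over all genes that share was 19.6% at 12 h and 20.0% at 24 h. DESeq2's Wald test called MT-CYB and MT-ND5 lower at 12 h, and MT-CYB lower and MT-ND1 higher at 24 h.

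The median log2 fold change of the 15 genes was -0.13 at 12 h and -0.10 at 24 h, against 0.02 and 0.01 over all genes tested. At 12 h 4 of the 15 were positive and 11 negative, and at 24 h 7 were positive and 8 negative. Both BaP libraries lay below both vehicle libraries for 8 of the 15 genes at 12 h and for 4 at 24 h, where this held for 23.9% and 24.0% of all genes. They lay above for 2 genes at each time, where it held for 25.3% and 23.2% of all genes.

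MT-CYB had the largest change of the 15. At 12 h its level was 3661 and 3516 CPM with BaP and 6929 and 6882 CPM with vehicle. After 24 h it was 3369 and 3989 CPM with BaP and 6088 and 6090 CPM with vehicle. All 4 BaP libraries were below all 4 vehicle libraries, and the vehicle replicates were almost equal within each time. The group means were 3588 ± 103 against 6905 ± 33.2 CPM at 12 h and 3679 ± 439 against 6089 ± 1.59 CPM at 24 h (SD, n = 2 each). MT-CYB fell by 0.94 ± 0.16 on the log2 scale at 12 h (adjusted p = 0.0014), to 0.520 times the vehicle level. It fell by 0.73 ± 0.16 at 24 h (adjusted p = 0.017), to 0.604 times that level.

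The call at 12 h held in all 14 alternative analyses, with log2 values from -0.98 to -0.91 and adjusted p up to 0.045. At 24 h the log2 value ran from -0.86 to -0.61, and the call was lost in 3 of 14: without replicate 1 of vehicle 24 h (adjusted p = 0.16), without replicate 2 of vehicle 24 h (adjusted p = 0.14), and when the libraries of that time alone were fitted (adjusted p = 0.11). MT-CYB was lower relative to the other mitochondrial genes too. When libraries were scaled to their total mitochondrial count, the log2 value was -0.93 at 12 h (adjusted p = 6.6e-05) and -0.79 at 24 h (adjusted p = 0.0018). It made up 5.86% and 5.61% of the coding mitochondrial counts in vehicle at 12 h and 3.40% and 3.48% with BaP. At 24 h these shares were 4.94% and 4.81% in vehicle and 3.25% and 2.96% with BaP.

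The genes of complex I, which takes electrons from NADH, gave a range of values with no call among 7. MT-ND5, the gene just ahead of MT-CYB on the heavy strand, was next in size at 12 h. Its level was 5643 and 4903 CPM with BaP at 12 h and 7226 and 7702 CPM with vehicle. The 24 h libraries had 5522 and 6714 CPM with BaP and 7613 and 7019 CPM with vehicle. MT-ND5 and MT-CYB were the 2 members for which all 4 BaP libraries lay below all 4 vehicle libraries, as they did for 5.75% of all genes. The log2 value of MT-ND5 was -0.50 ± 0.17 at 12 h (adjusted p = 0.097) and -0.26 ± 0.17 at 24 h (adjusted p = 0.44). At 12 h it passed in 4 of the 14 alternatives, among them edgeR's exact test (adjusted p = 0.022).

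MT-ND4 was at 16921 and 15896 CPM with BaP at 12 h and at 20910 and 21845 CPM with vehicle. The 24 h levels were 15515 and 21771 CPM with BaP and 22699 and 22375 CPM with vehicle. The BaP libraries were the lower at each time, but replicate 2 of BaP 24 h was close to vehicle. The log2 values were -0.38 ± 0.19 (adjusted p = 0.30) and -0.27 ± 0.19 (adjusted p = 0.47). MT-ND4L, which shares its mRNA with MT-ND4, had log2 values of -0.22 ± 0.20 at 12 h and -0.11 ± 0.20 at 24 h, and its groups overlapped at both times. MT-ND3 was at -0.10 ± 0.17 and -0.12 ± 0.17, also with overlap.

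MT-ND1 and MT-ND2, the first 2 mRNAs behind the rRNAs, did not lie with MT-ND5. MT-ND1 was at 9907 and 8366 CPM with BaP at 12 h and at 8629 and 8286 CPM with vehicle, which overlapped. At 24 h it was at 8006 and 9673 CPM with BaP and at 6571 and 6621 CPM with vehicle, with both BaP libraries higher. Its log2 value was 0.11 ± 0.18 at 12 h (adjusted p = 0.81) and 0.42 ± 0.18 at 24 h (adjusted p = 0.19). Without replicate 1 of BaP 24 h, the shallowest library, the 24 h value was 0.55 and passed (adjusted p = 0.021). MT-ND2 had log2 values of -0.13 ± 0.17 and 0.06 ± 0.17.

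MT-ND6, the only coding gene of the light strand, was at 1095 and 811 CPM with BaP at 12 h and at 1267 and 1401 CPM with vehicle. The levels with BaP at 24 h, 1119 and 1683 CPM, lay on either side of the 1548 and 1453 CPM of vehicle. Its log2 value was -0.49 ± 0.19 at 12 h (adjusted p = 0.16) and -0.10 ± 0.19 at 24 h (adjusted p = 0.84). The labels do not say whether the libraries kept strand. Without strand, reads from MT-ND6 and from heavy-strand RNA that lies antisense to it cannot be told apart.

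The 3 genes of complex IV, cytochrome c oxidase, had no call. MT-CO1 holds the site where oxygen is reduced. It was at 30437 and 28497 CPM with BaP at 12 h against 30375 and 29530 CPM with vehicle, and its log2 values were -0.02 ± 0.19 and 0.11 ± 0.19. MT-CO2, which takes electrons from cytochrome c, had -0.07 ± 0.21 and 0.06 ± 0.21. Its BaP 24 h replicates were the farthest apart of that group, at 10801 and 17734 CPM. MT-CO3 was at 8578 and 8248 CPM with BaP at 12 h and at 9488 and 11311 CPM with vehicle. By 24 h it was at 7954 and 9526 CPM with BaP and at 10960 and 11130 CPM with vehicle. The BaP libraries were lower at both times, and the log2 values were -0.31 ± 0.18 (adjusted p = 0.38) and -0.34 ± 0.18 (adjusted p = 0.31).

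The genes of complex V, the ATP synthase, were not called. MT-ATP6, part of its proton channel, was at 8842 and 8245 CPM with BaP at 12 h and at 10303 and 10351 CPM with vehicle. Its log2 value was -0.27 ± 0.18 at 12 h and -0.21 ± 0.18 at 24 h, where the groups overlapped. MT-ATP8 had 0.07 ± 0.25 and 0.16 ± 0.25, the widest errors of the 15. Its vehicle 12 h replicates, at 530 and 952 CPM, differed by 0.84 on the log2 scale, the largest replicate gap of any member.

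Both rRNA genes had positive values that did not pass the test. MT-RNR2, the RNA of the large ribosomal subunit, was at 48235 and 46793 CPM with BaP at 12 h and at 35703 and 42040 CPM with vehicle. The 24 h levels of MT-RNR2 were 45570 and 50591 CPM with BaP and 34700 and 39781 CPM with vehicle. It was the 1 member for which all 4 BaP libraries lay above all 4 vehicle libraries, as they did for 5.41% of all genes. Its log2 value was 0.29 ± 0.19 at 12 h (adjusted p = 0.47) and 0.37 ± 0.19 at 24 h (adjusted p = 0.30).

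MT-RNR1, the RNA of the small subunit, was at 21895 and 22718 CPM with BaP at 12 h and at 15508 and 18864 CPM with vehicle. At 24 h it was at 16742 and 19382 CPM with BaP and at 14307 and 16994 CPM with vehicle, which overlapped. Its log2 values were 0.38 ± 0.19 (adjusted p = 0.29) and 0.21 ± 0.19 (adjusted p = 0.59). Mitochondrial rRNAs carry short tails, so the level of these RNAs in poly-A-selected libraries is not their level in the cell.

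**Figure D2:**
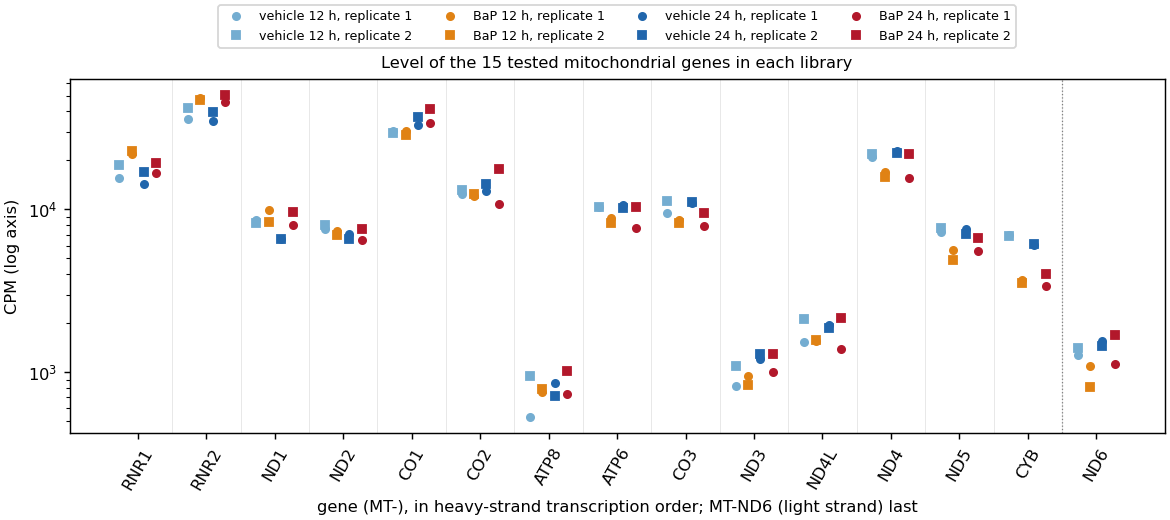
Level of the 15 tested genes in each of the 8 libraries, as CPM on a log axis, with genes in heavy-strand order and MT-ND6 last. Circles are replicate 1 and squares replicate 2; MT-CYB stands at 3369 to 3989 CPM in the 4 BaP libraries and at 6088 to 6929 CPM in the 4 vehicle libraries.

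The log2 fold change followed the order of the genes along the heavy-strand transcript. Across the 14 genes of that strand, Pearson's r between the value and the position in the order was -0.89 at 12 h and -0.87 at 24 h, and Spearman's rho was -0.90 and -0.87. The first 3 genes (MT-RNR1, MT-RNR2 and MT-ND1) had values of 0.11 to 0.38 at 12 h and 0.21 to 0.42 at 24 h. The next 7 had -0.31 to 0.07 and -0.34 to 0.16. The last 4 (MT-ND4L, MT-ND4, MT-ND5 and MT-CYB) had -0.94 to -0.22 and -0.73 to -0.11. Without MT-CYB r was -0.89 and -0.86, and over the 12 coding genes alone it was -0.82 and -0.86.

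These are descriptions of an order that was noticed in these data, and they carry no p-value. The genes share a transcript and the same libraries, so they are not independent points. The values that follow come from the same data and are no separate support for the order. Each BaP library against the mean of the vehicle libraries of its time gave an r of -0.88 and -0.88 at 12 h and -0.90 and -0.80 at 24 h. The difference between the replicates of a group gave 0.19 in BaP 12 h, -0.31 in BaP 24 h, -0.01 in vehicle 12 h and 0.48 in vehicle 24 h. Spearman's rho for these replicate differences was 0.24, -0.46, -0.04 and 0.52, in the same order. Vehicle at 24 h against 12 h gave an r of 0.31, and of 0.51 without MT-CYB. Gene length had an r of -0.14 and -0.03 with the response at 12 h and 24 h. GC content had -0.20 and -0.11, and level 0.12 and 0.14. Over the 12 coding genes alone length had -0.39 and -0.21. For the difference between replicates of a group, r ran from -0.29 to 0.64 with length and from -0.38 to 0.76 with GC content. With level it ran from -0.61 to 0.71. Differences between libraries of the same group thus also gave large r over these genes. The 12 h and 24 h comparisons used different libraries. No test of a trend along the strand was made, and MT-CYB alone was called.

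**Figure D3:**
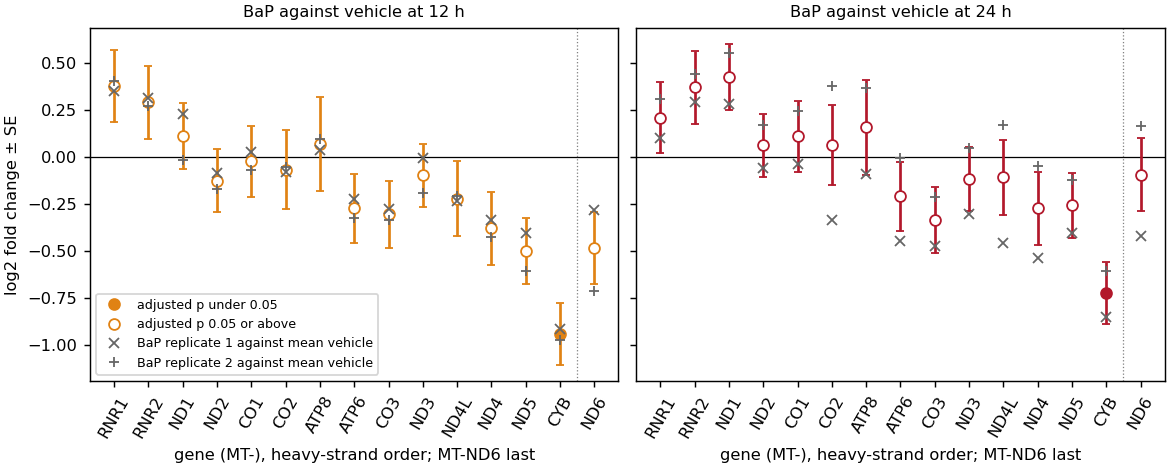
Log2 fold change of BaP against vehicle with its SE for the 15 tested genes at 12 h (left) and 24 h (right), in heavy-strand order with MT-ND6 last. Filled points passed an adjusted p of 0.05, which MT-CYB alone did, and crosses are each BaP replicate against the mean of the 2 vehicle libraries; the values run from 0.38 for MT-RNR1 to -0.94 for MT-CYB at 12 h.

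Levels of different genes were compared on a scale corrected for length, the deposited fraction of transcript molecules expressed per 1000000 molecules (TPM). In vehicle MT-RNR2 was highest, with a median of 28527 TPM over 4 libraries (26794 to 32143). MT-CO2 (25772), MT-CO1 (25077), MT-RNR1 (21347), MT-ATP6 (20682), MT-ND4 (19052) and MT-CO3 (17967) followed, each overlapping the next. After a gap came MT-ND4L (11918), MT-ATP8 (10217), MT-ND1 (9819), MT-ND2 (8975) and MT-CYB (7021), again each overlapping the next. MT-ND3 (5617), MT-ND5 (4931) and MT-ND6 (3787) were the lowest, and MT-ND6 lay apart from MT-ND5. The steps without overlap lay below MT-CO3, MT-CYB and MT-ND5. MT-RNR2 did not overlap MT-CO2, the next gene by median, but it overlapped MT-CO1, which reached 27012 TPM.

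With BaP the median of MT-CYB was 3928 TPM (3553 to 4093) against 7021 (6217 to 7784) in vehicle, and its rank moved from 12 to 13, behind MT-ND3. On this scale, 6 of the 15 genes had all 4 BaP libraries below all 4 vehicle libraries, as 3.96% of all genes did: MT-CYB, MT-ND5, MT-ND4, MT-ATP6, MT-CO3 and MT-ND4L. No member had all 4 above, where 4.36% of all genes did. The CPM scale differs from it by the scaling of whole libraries and by a length correction that was set per library, which moves short genes such as MT-ATP8 and MT-ND4L most. Replicate 2 of BaP 24 h had the smallest scaling factor (0.905, against 0.955 to 1.05 for the others), which raises its CPM.

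**Figure D4:**
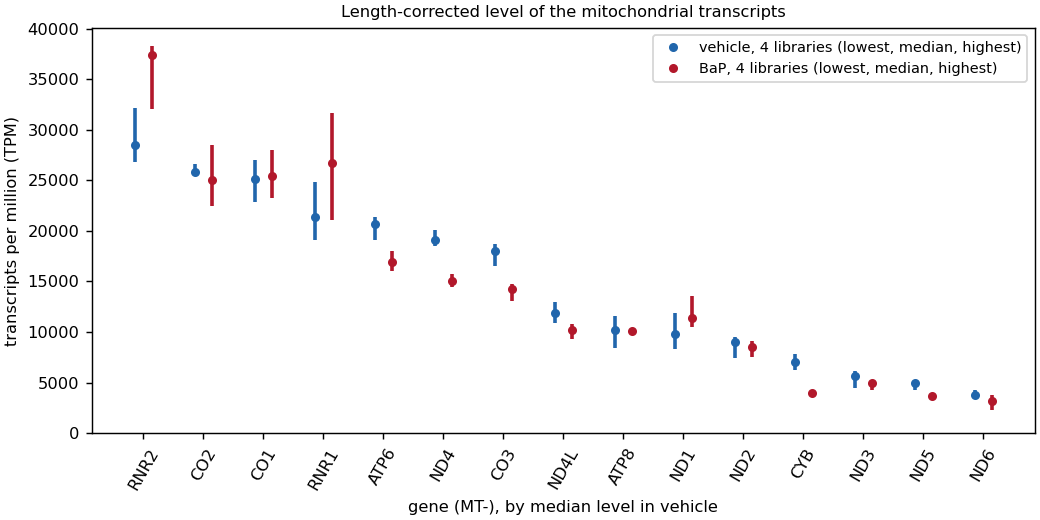
Length-corrected level of the 15 genes in TPM (linear axis from 0), ordered by the median in vehicle. Points are medians and bars run from the lowest to the highest of the 4 vehicle libraries (blue) or the 4 BaP libraries (red); the ranges of MT-CYB, 6217 to 7784 and 3553 to 4093, do not overlap.

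Ratios between genes of a library do not depend on how libraries are scaled. The ratio of MT-CYB to MT-RNR2 was 0.275, 0.231, 0.247 and 0.216 in the vehicle libraries and 0.107, 0.106, 0.104 and 0.111 in the BaP libraries. The ratio of MT-CYB to MT-ND1 was 0.655 to 0.758 in vehicle and 0.302 to 0.344 with BaP. Against its neighbour MT-ND5 it was 1.33 to 1.60 in vehicle and 0.983 to 1.19 with BaP. None of these ranges overlapped between vehicle and BaP, and the gap was narrowest against MT-ND5. MT-RNR2 and MT-ND1 had positive log2 values with BaP at both times, which widens their gap to MT-CYB. The ratios come from the same data and are no separate support for the call of MT-CYB. The share of other gene pairs without overlap was not computed. The ratio of MT-ATP8 to MT-ATP6 was 0.394 to 0.637 and that of MT-ND4L to MT-ND4 0.571 to 0.704 over the 8 libraries.

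**Figure D5:**
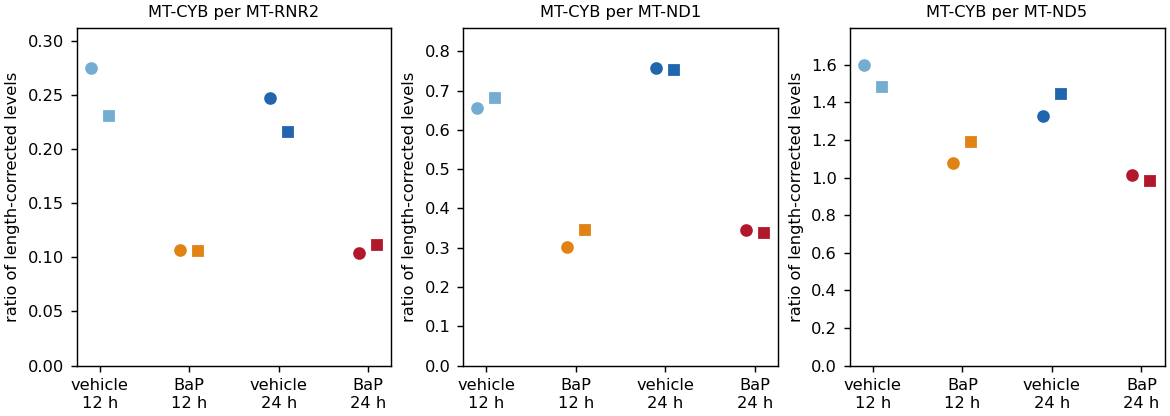
Ratio of the length-corrected level of MT-CYB to that of MT-RNR2, MT-ND1 and MT-ND5 in each library, by group. Circles are replicate 1 and squares replicate 2; the ratio to MT-RNR2 is 0.216 to 0.275 with vehicle and 0.104 to 0.111 with BaP.

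The response to BaP was not shown to differ between the times for any of the 15 genes. With edgeR's quasi-likelihood test of 24 h minus 12 h, 0 of 15 passed and 0 had an unadjusted p under 0.05, where 0.543% and 9.51% of all genes did. DESeq2's Wald test also gave 0 on both counts. The difference for MT-CYB was 0.22 ± 0.23 on the log2 scale (adjusted p = 0.82). The largest was 0.39 ± 0.27 for MT-ND6 (adjusted p = 0.71).

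Culture time in vehicle alone gave no call either. At 24 h against 12 h 0 of 15 passed edgeR's quasi-likelihood test, beside 3.28% of all genes, and 1 had an unadjusted p under 0.05, beside 16.4% of all genes. That gene was MT-ND3, at 826 and 1090 CPM in vehicle at 12 h and 1210 and 1287 CPM at 24 h (log2 value 0.38 ± 0.17, adjusted p = 0.27). DESeq2's Wald test and edgeR's exact test called 0, with 2 at an unadjusted p under 0.05 in each. MT-CYB had -0.18 ± 0.16 (adjusted p = 0.66), and MT-ND1 had -0.36 ± 0.18 (adjusted p = 0.33).

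The tRNA genes were hardly seen. In 14 of the 22 no library had a count, which allows up to 3 counts in each, and the 22 together had 3 to 26.5 estimated counts per library. They are 59 to 75 bases long, and per the labels the sequenced fragments were cut from a gel at a larger size. In the files, counts divided by fractions grew linearly with gene length from 0 at 115 to 137 bases, above the length of every tRNA, and the fraction of each tRNA was 0. MT-TQ, the tRNA for glutamine, had the highest single value, 18.5 counts in replicate 2 of BaP 24 h. Its counts were 4, 5.5, 1.5 and 18.5 in the BaP libraries and 1, 1.5, 1.5 and 0 in the vehicle libraries, too few for the test.

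Copies of mitochondrial sequence in the nuclear genome can take reads from the members. Of 319 such pseudogenes in the files, 87 had a count and 13 were tested. None passed edgeR's quasi-likelihood test at 12 h or 24 h, and none had an unadjusted p under 0.05. Together they held 0.265% to 0.637% as many counts as the members. For MT-CYB the 33 copies held 47 counts over all libraries, at most 0.0334% of the counts of MT-CYB in any library. The copy with the most counts was MTCO3P12, at 394 to 457 CPM in the BaP libraries and 448 to 930 CPM in the vehicle libraries. Copies of MT-CO3 held 3.97% to 9.82% as many counts as MT-CO3, the most in replicate 1 of vehicle 12 h. The next in level were MTCO1P12, MTND4P12 and MTCO2P12, each below 71 CPM in every library.

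Nuclear genes that transcribe, process and maintain mitochondrial RNA were read from a list of 42, of which 40 were matched and tested. Of these, 2 passed at 12 h and 2 at 24 h, all higher and none lower, where 3.41% and 3.11% of all genes were called higher. The median log2 value was 0.13 at each time. At 12 h these were ESRRA, a nuclear receptor that drives mitochondrial genes (0.62 ± 0.16, adjusted p = 0.027), and FASTKD2, a mitochondrial RNA-binding protein (0.50 ± 0.14, adjusted p = 0.030). At 24 h they were REXO2, which degrades short RNA fragments (0.60 ± 0.13, adjusted p = 0.010), and SSBP1, which binds single-stranded mitochondrial DNA (0.60 ± 0.14, adjusted p = 0.023). None of the 4 calls stood in every alternative. The call of ESRRA was lost in 5 of 14, without any one of the 4 libraries of 12 h and with DESeq2's Wald test (adjusted p up to 0.22). That of FASTKD2 was lost in 5 (up to 0.28), among them without either BaP 12 h library and without replicate 1 of vehicle 12 h. Those of REXO2 (4, up to 0.15) and SSBP1 (5, up to 0.32) were lost without replicate 2 of BaP 24 h and without either vehicle 24 h library.

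The core transcription factors did not pass. POLRMT was at 0.22 ± 0.11 at 12 h (adjusted p = 0.28) and -0.07 ± 0.12 at 24 h (adjusted p = 0.81). TFAM, which packs and bends mitochondrial DNA, was at 0.16 ± 0.19 and -0.06 ± 0.22, and TFB2M at 0.22 ± 0.16 and 0.22 ± 0.19. The elongation factor TEFM, at 3.39 to 6.56 CPM, was at 0.04 ± 0.29 and -0.18 ± 0.33. Among the genes for tails and stability, LRPPRC was at -0.02 ± 0.14 and -0.09 ± 0.14, and SLIRP at 0.23 ± 0.16 and 0.45 ± 0.16 (adjusted p = 0.49 and 0.14). MTPAP, the poly-A polymerase, was at 0.03 ± 0.16 and -0.20 ± 0.18, and PNPT1, which degrades mitochondrial RNA, at -0.02 ± 0.14 and 0.13 ± 0.16. In vehicle, PPARGC1A, a coactivator of mitochondrial biogenesis, rose by 1.20 ± 0.17 from 12 h to 24 h (adjusted p = 9.7e-04), and it was the 1 call of that list over time.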

How the data were processed

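Poly-A RNA of 8 HepG2 libraries (4 groups of 2) had been sequenced. Per the submitters' processing notes, the authors aligned reads with Bowtie 0.12.7 and divided them between transcripts with RSEM 1.1.7. The deposited values used are the authors' estimated counts per gene, not normalised, and the deposited fractions of transcript molecules, which are corrected for length. The genome build they used is, in the sources used here, not given. Replicates were independent experiments per the labels, which do not state whether equal replicate numbers in different groups share an experiment.

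Symbols were matched by Ensembl ID for 40926 of 49733 IDs. Estimated counts were rounded and fitted in R 4.3.3 with edgeR 4.0.16, with a quasi-likelihood model of 1 mean per group over all 8 libraries. filterByExpr (minimum count 10, minimum total count 15) kept 14746 genes, with TMM scaling of the libraries. CPM use these scaled library sizes, and TPM are the deposited fractions rescaled. Tests were two-sided, with p adjusted by Benjamini and Hochberg over all genes tested (threshold 0.05), and ± after a log2 value is its SE. Tests were tried on simulated data. All 15 tested members are named, and a fixed list of 42 nuclear genes was read beside them, naming those that passed and 8 chosen by function. Members and lists were chosen with earlier results of these data known. The alternatives were DESeq2's size factors, total counts, scaling without or to the mitochondrial genes, no filter (minimum total count 1), RSEM's posterior mean counts, a replicate block, edgeR's exact test, DESeq2 1.42.0 with its Wald test, fitting each comparison on its own libraries, and dropping every library once.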

Additional observations from a re-analysis of the deposited data

How the results depend on the processing

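MT-CYB kept its direction in every alternative at both times, and its call at 12 h in all 14. The main fit tested 15 members and the fit with no filter on low counts 23. The number of mitochondrial genes called at 12 h (1) was 3 with no filter (MT-CYB, MT-ND5 and MT-ND6). The same 3 genes were called with the libraries of that time alone. The number was 2 with DESeq2's Wald test and 2 with edgeR's exact test (MT-CYB and MT-ND5). The share of all genes called is not given for the alternatives, so these counts have no baseline. The number at 24 h (1) was 2 with DESeq2's Wald test, 0 with the libraries of that time alone, and 0 to 3 when a library was left out. The lowest number came without either vehicle 24 h library. The highest came without replicate 1 of BaP 24 h, which added MT-ND1 and MT-TQ, both higher. MT-TQ then rested on the 18.5 counts of replicate 2, the library left in that group and the one where its count was highest. Counts for the difference between times and for vehicle over time were 0 in every alternative computed; the exact test and the fit to single comparisons were not computed for the difference.

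The difference in mitochondrial share of counts at 12 h (0.22 percentage points) was -1.25 without the rRNA genes, -0.25 as a share of transcript molecules and -0.551 to 0.981 when a library was left out. At 24 h (0.49) it was -0.613 without the rRNA genes, -0.80 as a share of transcript molecules and -0.235 to 1.22 when a library was left out. The cause was not tested.

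With a replicate block the counts were 1 and 1, and MT-CYB had -0.94 (adjusted p = 0.0033) and -0.73 (adjusted p = 0.027). Across 7299 genes, the difference between replicates 1 and 2 of a group correlated at 0.42 between BaP and vehicle at 12 h. It correlated at 0.06 at 24 h, and at -0.24 to 0.06 over all other pairs of groups. The numbers were not taken to pair the libraries. Whether the 12 h libraries share experiments was not tested, and the block, a single effect over both times, does not model a pairing at 12 h alone. Replicate 1 of BaP 24 h, the shallowest library, allows up to 1.12 CPM where it has no count. This limit is for counting error alone, as several reads can stem from the same molecule.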

Other observations

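MT-TS1, a tRNA gene for serine and 1 of the 8 tRNA genes with a count, was named after its values were seen. It had no count in any BaP library and 1, 3.55, 0.93 and 3 estimated counts in the vehicle libraries. MT-TQ went the other way, with 29.5 counts over the BaP libraries and 4 over the vehicle libraries. The share of all genes split in this way at such low counts was not computed. A value of 0 allows up to 3 counts in a library. MT-TS1 did not pass the filter and was not tested.

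NRF1, a nuclear transcription factor of respiratory genes, was named after its values were seen. By edgeR's quasi-likelihood test it had a log2 value of -0.47 at 12 h (adjusted p = 0.11) and -0.48 at 24 h (adjusted p = 0.17), with no call. Its unadjusted p was under 0.05 at each time, as for 5 of the 40 list genes at 12 h and 8 at 24 h. Values of both signs stood among them. Over all genes that share was 19.6% at 12 h and 20.0% at 24 h.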
